A study of Mus musculus with 6 samples.

Results

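The genes described here encode 10 RNA-binding proteins that regulate alternative splicing in a tissue-restricted way and lie outside the CELF and MBNL families: Rbfox1, Rbfox2, Ptbp1, Ptbp2, Qk, Rbm20, Rbm24, Rbm38, Nova1 and Esrp1. They were picked by name from the 23367 gene entries of the deposited table, and an entry was found for all 10. The table gives gene values for polyadenylated RNA of gastrocnemius, a calf muscle, from wild-type FVB mice at 5 stages of development. The 6 libraries covered embryonic day 18.5 (E18.5, RNA pooled from animals of both sexes), postnatal day 2 (PN2, pooled males), PN14 (replicates 1 and 2, each 1 male), PN28 (1 male) and adult at 22 weeks (1 male). No treatment, transgene or mutation was involved. Only PN14 had more than 1 library, and each library was run on a lane of its own. Lane, animal and stage therefore cannot be told apart at the other stages, nor lane and animal at PN14.

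Vertebrate splicing factors of this kind bind short sequence elements in or beside an alternative exon and favour or block its inclusion, often according to whether they bind downstream or upstream of it. RBFOX proteins bind UGCAUG, PTB proteins bind pyrimidine-rich tracts and mostly repress exons, quaking (Qk) binds ACUAA-containing elements, and RBM20 is known for its control of titin splicing in striated muscle. RBM24 and RBM38 are paralogs that promote muscle differentiation. PTBP2 and NOVA1 are best known from neurons, and ESRP1 from epithelia.

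The sequences below come from the annotated genes and show the exons through which 2 of these families are known to make tissue-specific or self-limiting products. They are printed because the balance between the paralogs of both families shifted with age. The deposited values are sums over a whole gene and do not resolve them. Near their 3′ ends, both RBFOX genes carry a pair of alternative exons known as B40 (brain) and M43 (muscle), after their lengths of 40 and 43 bases. In GENCODE M1 (mm9), the Rbfox1 B40 exon lies at chr16:7363958-7363997 and its M43 exon at chr16:7369894-7369936 (plus strand), while those of Rbfox2 lie at chr15:76924881-76924920 and chr15:76922242-76922284 (minus strand). All 4 are wholly coding. For Rbfox1, 4 of 7 annotated transcripts hold B40, 3 hold M43 and 0 hold both, and for Rbfox2 the numbers are 4, 3 and 0 of 8. Capitals mark the bases that differ between the paralogs.
Rbfox1 B40: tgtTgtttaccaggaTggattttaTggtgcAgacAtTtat
Rbfox2 B40: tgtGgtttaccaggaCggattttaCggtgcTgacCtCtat
Rbfox1 M43: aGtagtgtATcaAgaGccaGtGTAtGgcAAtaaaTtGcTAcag
Rbfox2 M43: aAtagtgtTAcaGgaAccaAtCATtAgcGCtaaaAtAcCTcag
The brain exons were identical at 34 of 40 bases (85%) and the muscle exons at 27 of 43 (62.8%).

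Ptbp1 and Ptbp2 each carry an exon of 34 bases whose skipping, known to be promoted by PTB protein itself, shifts the reading frame and sends the transcript to decay. By this route PTBP1 limits its own level and that of PTBP2. It lies at chr10:79324759-79324792 (plus strand) in Ptbp1, where 5 of 18 annotated transcripts hold it and 4 of these code through it, and at chr3:119427530-119427563 (minus strand) in Ptbp2, which has 1 annotated transcript (mm9, GENCODE M1). The exon is in capitals, after the last 80 bases of the intron before it.
Ptbp1 (chr10:79324679-79324792): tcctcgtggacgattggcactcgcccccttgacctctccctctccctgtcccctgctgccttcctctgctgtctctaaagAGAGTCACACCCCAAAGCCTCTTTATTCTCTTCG
Ptbp2 (chr3:119427530-119427643): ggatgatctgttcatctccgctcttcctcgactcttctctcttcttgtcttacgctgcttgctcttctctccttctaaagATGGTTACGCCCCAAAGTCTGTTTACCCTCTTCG
These exons were identical at 26 of 34 bases (76.5%). Pyrimidines made up 73.8% of the intron window of Ptbp1 and 76.2% of that of Ptbp2, against a median of 56.2% over 93985 windows of the same length before all exons but the first of protein-coding genes on the 10 chromosomes of these genes. The PTB element TCTT, searched on the transcribed strand with overlaps allowed, occurred 0 times in the Ptbp1 window and 6 times in the Ptbp2 window. At least 1 copy was present in 58.7% of all windows and at least 6 in 0.146%. A match of letters is a description of the sequence and was not tested as a binding site.

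Between 125402932 and 157868359 counts fell on genes in each library. The 6 myofibre marker genes Ckm, Acta1, Myh4, Mylpf, Tnnt3 and Ttn all exceeded 1 FPKM in every library (fragments per kilobase of gene, scaled to library size, a level per length), with summed levels from 31400 to 127000 FPKM. The 20 most abundant genes took 16 and 16.7% of the counts of the perinatal libraries and 28 to 36.9% of the later ones. FPKM is scaled to library size alone, so other genes read lower in the later libraries. With edgeR's TMM factors the median gene of the 16882 tested stayed near its level (log2 fold change -0.01 for PN2 to PN14, -0.05 for E18.5 to adult), and with library size alone it moved by -0.66 and -1.08. Fold changes below use TMM, and the other scaling is given where it changes a direction or a call.

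Called genes are those with a log2 fold change of 1 or more, up or down, and an adjusted p under 0.05 (edgeR's quasi-likelihood test, Benjamini-Hochberg over the 16882 genes). The spread is estimated from the 2 PN14 mice alone, so that each comparison assumes the unreplicated stages vary as PN14 does. All 10 genes passed the low-count filter. From E18.5 to adult 6 of the 10 were called, where 44.9% of all genes tested were. Rbfox1, Rbm20, Rbm24 and Rbm38 rose (4 of 10, against 21.4% of all genes called as rising), and Rbfox2 and Ptbp1 fell (2 of 10, against 23.6%). The median log2 fold change of the 10 genes was 0.24, beside -0.05 for all genes. From PN2 to PN14 2 of the 10 were called (23.0% of all genes): Rbfox1 rose (1 of 10, against 11.8% of all genes called as rising) and Ptbp1 fell (1 of 10, against 11.2%). In that test none of the 10 was called from E18.5 to PN2 (0.0296% of all genes) or from PN14 to PN28 (0.0178%). None was called from PN28 to adult either (0.521%). At an unadjusted p under 0.05 in the same test were 0, 0 and 3 of the 10, against 1121, 1420 and 3091 of the 16882 genes. The DESeq2 Wald test called 0, 0 and 1 of the 10 (0.971, 0.8 and 4.84% of all genes). The exact test of edgeR also called 0, 0 and 1 (2.05, 1.43 and 6.79% of all genes). With 10 genes, shares this near the background say nothing about the group as a whole.

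**Figure D1:**
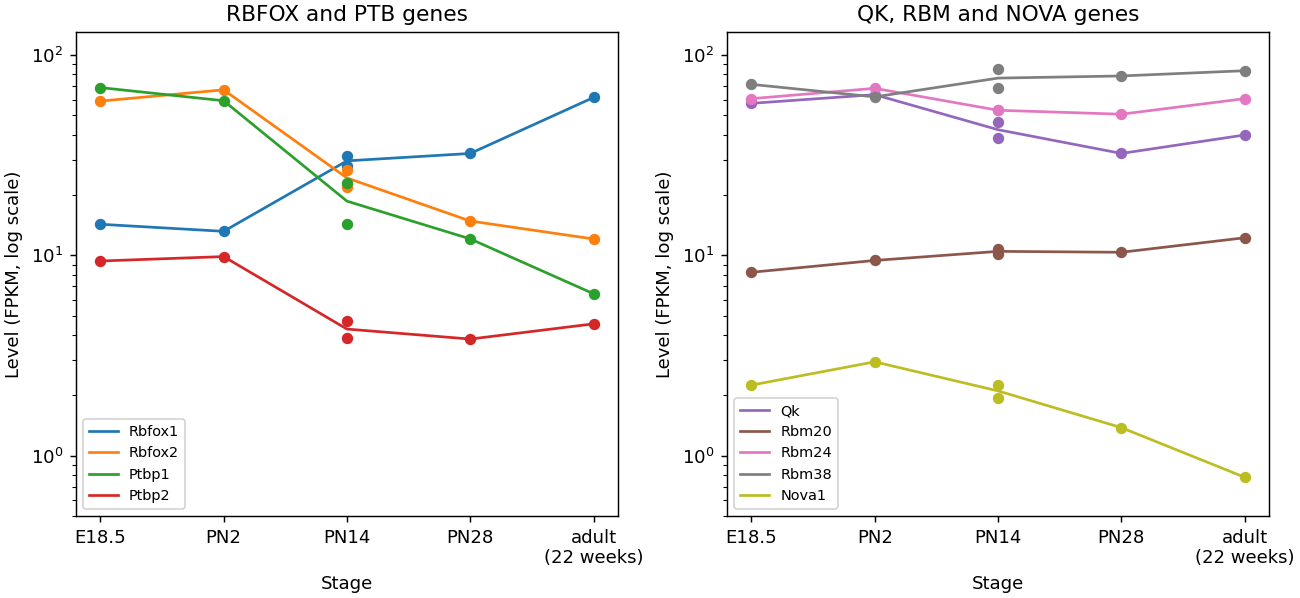
Levels (FPKM, log scale) of 9 of the genes at the 5 stages, with each point a library and each line joining the stage values (mean of 2 libraries at PN14). Rbfox1 climbed from 14.3 to 61.4 FPKM while Rbfox2 and Ptbp1 came down from 58.9 and 68.8 to 12.1 and 6.43 FPKM, and the Rbm genes stayed within 1.5-fold. Esrp1 is not drawn since it was listed at 0 FPKM in some libraries.

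Rbfox1 (chromosome 16 of mm9, 6809315 to 7412572), the RBFOX gene of muscle, heart and neurons, had the highest log2 fold change of the 10 genes from E18.5 to adult. Its FPKM was 14.3 (E18.5), 13.2 (PN2), 31.3 and 28 (PN14 replicates 1 and 2), 32.3 (PN28) and 61.4 (adult). The first 2 stages were low, PN14 and PN28 were close to each other, and the adult library stood above all others. From PN2 to PN14 the log2 fold change was 1.84 (standard error 0.284, adjusted p = 0.0094, edgeR's quasi-likelihood test), and from E18.5 to adult it was 3.13, an 8.75-fold rise (standard error 0.325, adjusted p = 0.00156, the same test). With library size alone both stayed called, at 1.17 and 2.10. From PN28 to adult the log2 fold change was 1.07 (standard error 0.302) and did not pass the quasi-likelihood test of edgeR (adjusted p = 0.163), whereas the Wald test of DESeq2 and the exact test of edgeR called it (adjusted p = 0.0394 and 0.0438). The step from PN14 to PN28, 0.35 on the log2 scale, was smaller than the 0.42 between the PN14 replicates.

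Rbfox2 (chromosome 15, 76909420 to 77137483), the more widely expressed paralog, had 58.9 FPKM (E18.5) and 67.1 (PN2). The PN14 replicates had 22.0 and 26.7 FPKM, PN28 had 14.8 and the adult 12.1. Every library from PN14 on was below both perinatal ones. From E18.5 to adult the log2 fold change was -1.26 (standard error 0.271, adjusted p = 0.011, edgeR's quasi-likelihood test). From PN2 to PN14 it was -0.81 (standard error 0.225, adjusted p = 0.0417 in the same test), which passed the p threshold and missed the fold threshold. With library size alone the PN2 to PN14 value was -1.46 and called.

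The ratio of the paralogs within a library does not depend on how libraries are scaled to each other. Rbfox1 had 0.243 times the FPKM of Rbfox2 at E18.5 and 0.197 times at PN2. The ratio was 1.42 and 1.05 for the 2 PN14 mice, 2.17 for PN28 and 5.09 for the adult. Rbfox1 thus made up 19.5% of the summed RBFOX level at E18.5 and 83.6% in the adult. The sum itself was 73.2 FPKM at E18.5, between 47.1 and 54.7 at PN14 and PN28, and 73.5 in the adult. Unlike the ratio, the sum depends on the scaling. With library size alone the median gene moved by -1.08 on the log2 scale from E18.5 to adult. On the log2 scale the ratio moved by 4.39 from E18.5 to adult, beside a standard deviation of 0.31 at PN14 (n = 2). The third family member, Rbfox3, a marker of neurons, was at or under 0.19 FPKM in every library.

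**Figure D2:**
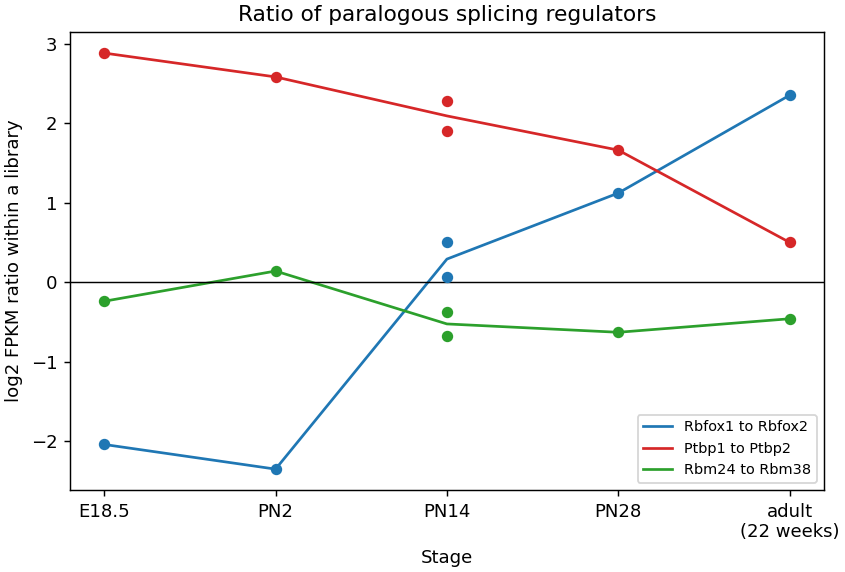
Log2 ratio of the FPKM of 2 paralogs within each library, by stage, with each point a library and each line joining the stage values (mean of 2 libraries at PN14). The Rbfox1 to Rbfox2 ratio crossed 0 (equal levels) between PN2 and PN14, going from -2.04 at E18.5 to 2.35 in the adult, the Ptbp1 to Ptbp2 ratio fell from 2.88 to 0.50, and the Rbm24 to Rbm38 ratio stayed between -0.68 and 0.14.

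Ptbp1 (chromosome 10, 79317172 to 79327516) encodes the widely expressed polypyrimidine tract binding protein, a repressor of many muscle and neuronal exons. Its FPKM was 68.8 (E18.5), 59.2 (PN2), 14.4 and 22.9 (PN14 replicates 1 and 2), 12.1 (PN28) and 6.43 (adult). The order of the stages ran downward with age, and the adult library was 10.7-fold below E18.5 in FPKM. The log2 fold change was -1.03 from PN2 to PN14 (standard error 0.224, adjusted p = 0.0217, edgeR's quasi-likelihood test) and -2.39 from E18.5 to adult (standard error 0.281, adjusted p = 0.00195, the same test). The PN2 to PN14 change was close to the fold threshold. Without PN14 replicate 1 it was -0.84, and without replicate 2 it was -1.25, both as untested differences. The PN14 to PN28 step of 0.36 was within the 0.41 between the PN14 replicates.

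Genes of dividing and non-muscle cells moved in the same direction as Ptbp1 and Rbfox2. In a bulk sample, fewer cells of a type and less RNA per cell cannot be told apart. Of 8 proliferation genes (such as Mki67 and Top2a) all 8 fell from E18.5 to adult, and their summed FPKM was 249 (E18.5), 187 (PN2), 36.9 and 62.8 (PN14), 38.2 (PN28) and 15.9 (adult). The 5 fibroblast genes summed to 4410 FPKM at E18.5 and 438 in the adult, with 4 of 5 falling. The 4 satellite cell and myoblast genes, of which 3 fell, summed to 113 and 23.2 FPKM. Of all genes tested, 23.6% were called as falling from E18.5 to adult. The adult library still had 4 of 4 satellite cell, 8 of 8 proliferation and 5 of 5 fibroblast genes above 0 FPKM. At 1 FPKM or more were 2, 1 and 5 of these. The 1 proliferation gene was Pcna, with 15.2 of the 15.9 FPKM, while Mki67 had 0.09 and Top2a 0.1. The median log2 fold change of the 8 proliferation genes from E18.5 to adult was -7.39. The part of these cell types in the fall of Ptbp1 and Rbfox2 was not tested.

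Ptbp2 (chromosome 3, 119421660 to 119486306) was the less abundant paralog throughout. Its FPKM was 9.37 (E18.5), 9.86 (PN2), 3.86 and 4.71 (PN14), 3.82 (PN28) and 4.55 (adult). The perinatal libraries were about level with each other and so were the later ones. From PN2 to PN14 its log2 fold change of -0.55 was not called (standard error 0.167, adjusted p = 0.0527, edgeR's quasi-likelihood test). From E18.5 to adult it was -0.02 with a 95% interval from -0.50 to 0.47 (adjusted p = 0.949, the same test). With library size alone Ptbp2 was called in both comparisons, at -1.2 and -1.04. The median gene moved by -0.66 and -1.08 under that scaling, so the first value exceeds the shift of all genes and the second is near it.

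Within a library, the FPKM of Ptbp1 divided by that of Ptbp2 was 7.34 (E18.5), 6 (PN2), 3.73 and 4.86 (PN14), 3.16 (PN28) and 1.41 (adult). The ratio thus came down 5.2-fold from E18.5 to adult, with its largest step after PN28. Ptbp3, the third PTB gene, went from 11.2 FPKM at E18.5 to 1.97 in the adult (log2 fold change -1.49, standard error 0.25, adjusted p = 0.0049, edgeR's quasi-likelihood test). The ratio of Ptbp1 to Ptbp3 moved less than that of Ptbp1 to Ptbp2, from 6.12 to 3.26. Raver2, which encodes a partner protein of PTB, had a log2 fold change of -2.51 from E18.5 to adult (adjusted p = 0.00152, the same test), and its relative Raver1 had -0.44 and was not called (adjusted p = 0.105), though with library size alone it was, at -1.46.

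Rbm20 (chromosome 19, 53751796 to 53941570) had FPKM values of 8.23 (E18.5), 9.43 (PN2), 10.2 and 10.8 (PN14), 10.4 (PN28) and 12.2 (adult). These values lay within 1.49-fold of each other and rose a little with age. After TMM normalization the log2 fold change from E18.5 to adult was 1.60 (standard error 0.224, adjusted p = 0.00287, edgeR's quasi-likelihood test), and with library size alone it was 0.57 and not called. The PN2 to PN14 step of 0.81 (standard error 0.197, adjusted p = 0.0288, the same test) missed the fold threshold.

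Rbm24 (chromosome 13, 46513669 to 46526459) and Rbm38 (chromosome 2, 172845999 to 172860235) were both above 50 FPKM in every library. Rbm24 had 60.6 FPKM (E18.5), 68.2 (PN2), 53.1 and 52.9 (PN14), 50.7 (PN28) and 60.6 (adult). Rbm38 had 71.4 FPKM (E18.5), 61.8 (PN2), 85.2 and 68.2 (PN14), 78.7 (PN28) and 83.5 (adult). In FPKM the E18.5 and adult libraries held Rbm24 at the same level, and every other stage of Rbm38 but PN2 lay between its PN14 replicates. With TMM both genes were called from E18.5 to adult, with log2 fold changes of 1.03 for Rbm24 (standard error 0.289, adjusted p = 0.0272) and 1.25 for Rbm38 (standard error 0.345, adjusted p = 0.0252; edgeR's quasi-likelihood test). With library size alone the values were 0.00 and 0.23 and neither was called. The rise of Rbm20, Rbm24 and Rbm38 is therefore relative to the median gene, which lies 1.08 lower on the log2 scale in the adult under library size. Keeping only genes that averaged 1 CPM or more also ended the call of Rbm24, at 0.94. The ratio of Rbm24 to Rbm38 was 0.848 at E18.5 and 0.725 in the adult. Its log2 standard deviation at PN14 was 0.22 (n = 2), near the change of -0.23 from E18.5 to adult.

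**Figure D3:**
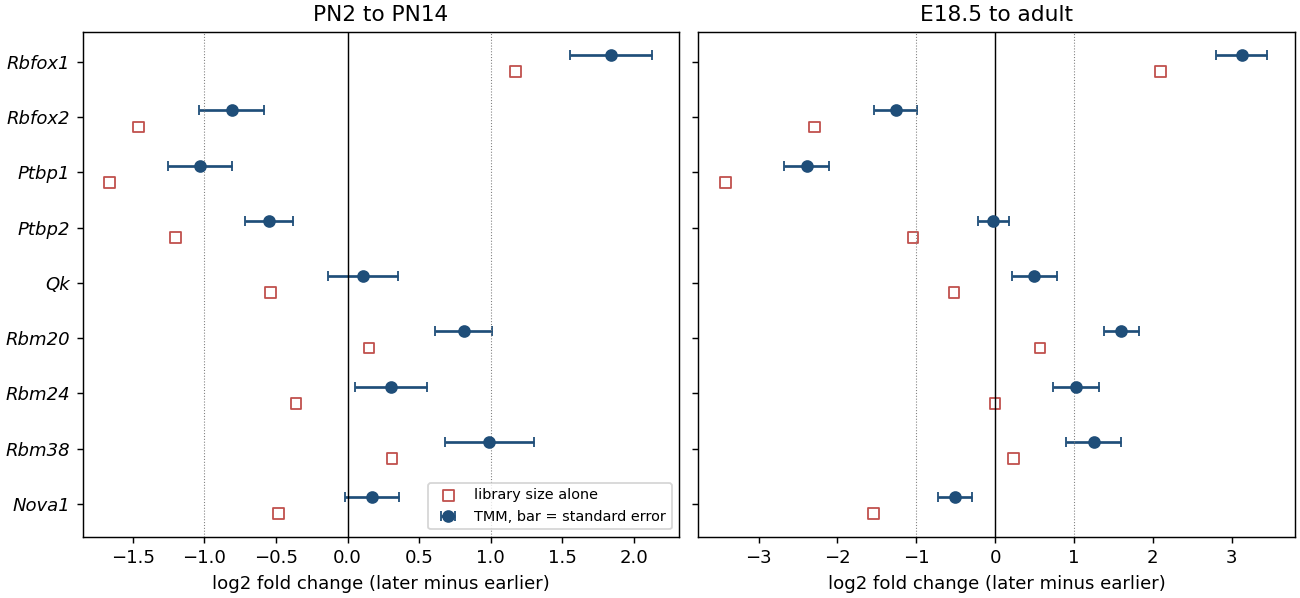
Log2 fold change of 9 of the genes from PN2 to PN14 (left) and from E18.5 to adult (right), with filled circles for TMM (bar: 1 standard error of the edgeR fit) and open squares for library size alone; dotted lines mark a 2-fold change. Rbfox1 lies right of the dotted line and Ptbp1 left of it under both scalings in both comparisons, whereas Rbm24 moves from 1.03 to 0.00 for E18.5 to adult.

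Qk (chromosome 17, 10399336 to 10512245) encodes quaking, a STAR-family protein of glia, endothelium and muscle. Its FPKM was 57.4 (E18.5), 63.4 (PN2), 38.4 and 46.4 (PN14), 32.3 (PN28) and 39.9 (adult). It was not called in any comparison. Its TMM log2 fold change was 0.11 from PN2 to PN14 (adjusted p = 0.752, edgeR's quasi-likelihood test) and 0.50 from E18.5 to adult (95% interval -0.19 to 1.19, adjusted p = 0.176, the same test), and with library size alone the signs turned, to -0.54 and -0.52. Schwann cell genes differed between the PN14 mice, with the 6 genes of that list summing to 329 FPKM in replicate 1 and 1200 in replicate 2. Qk differed by 0.03 on the log2 scale of normalized CPM between the same libraries. Endothelial genes summed to 199 FPKM (E18.5), 200 (PN2), 195 and 291 (PN14), 140 (PN28) and 76.7 (adult). The part of either cell type in the level of Qk was not tested.

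Nova1 (chromosome 12, 47795504 to 47919762) was low and lowest in the adult. Its FPKM was 2.25 (E18.5), 2.94 (PN2), 1.95 and 2.26 (PN14), 1.38 (PN28) and 0.78 (adult), resting on 771 to 3204 counts. Its log2 fold change from E18.5 to adult was -0.51 with TMM and was not called (95% interval -1.04 to 0.02, adjusted p = 0.0902, edgeR's quasi-likelihood test), and -1.54 with library size alone, where it was. Nova2 had between 0.30 and 1.21 FPKM, with the highest value in PN14 replicate 2, and it rose from PN2 to PN14 with TMM but was not called with library size alone (log2 fold change 1.2, standard error 0.251, adjusted p = 0.0196, the same test). The 8 genes of the neuronal list summed to 8.19 FPKM (E18.5), 5.62 (PN2), 2.36 and 3.69 (PN14), 1.71 (PN28) and 2.13 (adult). Only 1 or 2 of them reached 1 FPKM in any library, and 4 of 8 fell from E18.5 to adult (23.6% of all genes). Snap25 was listed at 0 FPKM in PN14 replicate 2 and at PN28, and Rbfox3 in PN14 replicate 2. Stmn2 alone had 4.64 FPKM at E18.5 and 1.99 in the adult. The 6 Schwann cell genes took another course, summing to 234 FPKM (E18.5), 604 (PN2), 329 and 1200 (PN14), 284 (PN28) and 232 (adult). The part of either list in the level of Nova1 was not tested.

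Esrp1 (chromosome 4, 11259080 to 11313930), the epithelial regulator, was near the limit of detection. Its counts were 29 (E18.5), 15 (PN2), 5 and 14 (PN14), 2 (PN28) and 1 (adult), or between 0 and 0.05 FPKM. E18.5 exceeded the adult library 12.9-fold after TMM normalization, with an exact 95% interval of 2.14 to 526 that covers counting error only, and PN28 7.37-fold (1.86 to 63.7). edgeR's quasi-likelihood test did not call it from E18.5 to adult with TMM (adjusted p = 0.0521) and called it with library size alone (adjusted p = 0.00193). The 8 epithelial and keratinocyte genes summed to 9.87 FPKM (E18.5), 8.67 (PN2), 1.43 and 2.14 (PN14), 0.85 (PN28) and 1.33 (adult). Of these 8 genes, 4 fell and 1 (Cdh1, E-cadherin) rose from E18.5 to adult, against 23.6 and 21.4% of all genes. Their sum and Esrp1 were both highest at E18.5. With 2 counts at PN28 and 1 in the adult, the Esrp1 levels of these libraries cannot be ordered. Krt5 and Krt14 were listed at 0 FPKM in PN14 replicate 1 and had 0 counts at PN28 and in the adult, where Grhl2 had 3 counts each. Their part in the level of Esrp1 was not tested. Esrp2 was at or under 0.03 FPKM in every library.

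**Figure D4:**
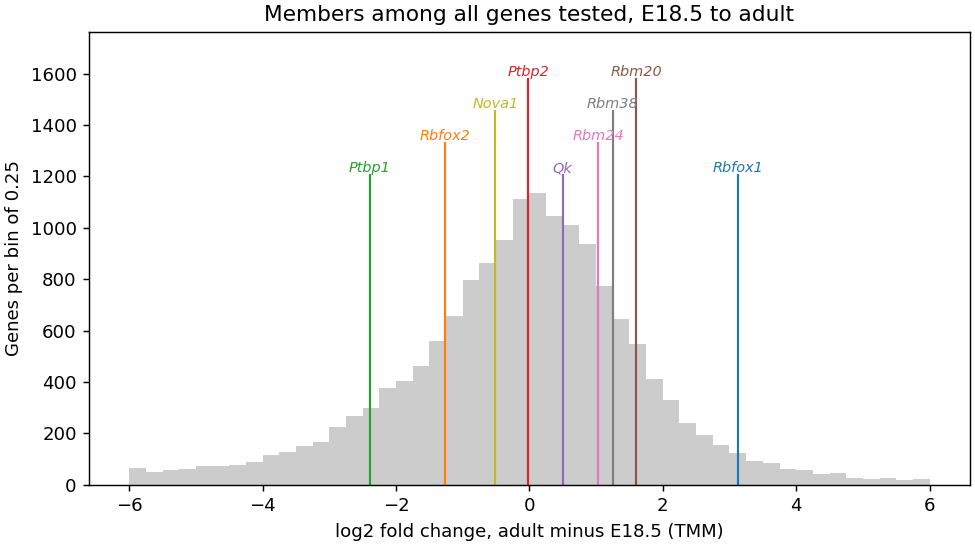
Histogram of the log2 fold change from E18.5 to adult (TMM) of the genes tested, in bins of 0.25, with vertical lines at 9 of the genes (line heights only separate the names). Rbfox1 at 3.13 is the rightmost line, Ptbp1 at -2.39 the leftmost, and Ptbp2 at -0.02 lies at the centre; 648 genes below -6 and 120 above 6 are not drawn.

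Against all 16882 genes tested from E18.5 to adult, the log2 fold change of Rbfox1 lay above that of 96.0% of them, that of Rbm20 above 85.9%, Rbm38 above 80.7%, Rbm24 above 76.6% and Qk above 64.6%. Ptbp2 was above 51.0%, Nova1 39.1%, Rbfox2 25.5% and Ptbp1 14.1%. Esrp1 lay lower still, above 8.20%, by a fitted fold change that rests on 1 adult count. These percentiles describe where each gene sat among all genes and carry no test. Weighed by FPKM, the makeup of the group of 10 changed. Ptbp1 held 19.6% of the summed FPKM of the 10 genes at E18.5 and 2.28% in the adult, Rbfox1 went from 4.07% to 21.8%, and Rbm24 from 17.2% to 21.5%. The summed level, scaled to library size alone, was 351 FPKM at E18.5 and 282 in the adult.

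For each gene, the genes with the most similar course over the 6 libraries were found by the root mean square difference of mean-centred log2 normalized CPM. Closest to Rbfox1 were Nt5dc3 and 2700089E24Rik, at 0.118 and 0.134. Closest to Rbfox2 were Scai (0.0531) and 3110007F17Rik (0.0584), and to Ptbp1 Ddx11 (0.0392) and Ppib (0.0552). Ptbp2 had Zfp148 and Abl1 (0.0277 and 0.0311), Qk had Patl1 and E4f1 (0.0205 and 0.0401), and Rbm20 had Nabp2 and Mob2 (0.0283 and 0.0355). Rbm24 had Sugp1 and Gorasp2 (0.0253 and 0.0280), Rbm38 had Zbtb8os and Ido1 (0.0749 and 0.0789) and Nova1 had 4930523C07Rik and Sec16b (0.0812 and 0.0814). For Esrp1 they were Gpr30 and Pafah2 (0.0699 and 0.0824), which rest on few Esrp1 counts. The 2 genes with the closest course were the same with library size alone for Rbfox1, Ptbp1, Ptbp2, Qk, Rbm20 and Rbm24, and Ido1 was at or under 0.09 FPKM in every library.

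Of 9 CELF and MBNL genes, 8 were tested and 4 were called from E18.5 to adult, 2 rising and 2 falling. The shares of all genes tested were 44.9% called, 21.4% rising and 23.6% falling in that comparison. Mbnl1 rose by a log2 fold change of 3.20, next to 3.13 for Rbfox1, and Mbnl2 by 1.04 (0.02 and not called with library size alone). Mbnl3 and Celf4 fell by 5.91 and 2.83, from low levels of 1.6 and 0.4 FPKM at E18.5. From PN2 to PN14 the values were 1.66 for Mbnl1 and 1.84 for Rbfox1 (adjusted p = 0.0143 and 0.0094, edgeR's quasi-likelihood test), and with library size alone Mbnl1 had 0.99 and was not called, whereas Rbfox1 had 1.17 and was. Of 22 other splicing regulators, 6 were called from E18.5 to adult, 1 rising (Khdrbs3, log2 fold change 1.13, or 0.11 and not called with library size alone) and 5 falling. Elavl2 (-3.86), Raver2 (-2.51), Elavl4 (-2.23) and Srrm4 (-1.67) had the largest falls. Elavl2, Elavl4 and Srrm4 are genes of neurons and were already low at E18.5, at 0.22, 0.11 and 0.17 FPKM, against 7.13 for Raver2. The median log2 fold change of the 22 genes was -0.56, beside 0.24 for the 10 genes described here and -0.05 for all genes. With library size alone 17 of the 22 fell and 0 rose, against 7700 and 1347 of all 16882 genes. That scaling put the median at -1.58 for the 22 genes and at -1.08 for all genes.

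Muscle transcripts with exons that these proteins are known to regulate were followed for their level, since splicing is not resolved in gene values. From E18.5 to adult 8 of 15 were called, 6 rising and 2 falling. Of all genes tested, 44.9% were called, 21.4% as rising and 23.6% as falling. Trdn, which encodes triadin of the calcium release unit, rose from 34.6 to 367 FPKM (log2 fold change 4.43). Nrap and Capn3, which encode a protein of assembling myofibrils and the muscle protease calpain 3, rose by 3.07 and 2.37. Ryr2 and Actn1, the cardiac ryanodine receptor and a non-muscle alpha-actinin, fell by 1.91 and 1.74. Ryr2 was already low at E18.5, at 0.13 FPKM, against 20.8 for Actn1. The other rising genes were Fxr1, Mef2a and Mef2d, at 1.56, 1.05 and 1.04, and with library size alone none of these 3 was called. Ttn, the best-known target of RBM20, had 55.7 FPKM at E18.5 and 111 in the adult, a log2 fold change of 2.03 that was not called with TMM (standard error 1.07, adjusted p = 0.156, edgeR's quasi-likelihood test) and was called with library size alone. Tpm1, a target of PTB protein, had 3.68 (standard error 1.66) and was not called with TMM either (adjusted p = 0.107, the same test), but was called with library size alone, at 2.66. The 15 genes had a median of 1.18 (TMM) or 0.16 (library size alone).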

How the data were processed

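Polyadenylated RNA of mouse gastrocnemius was sequenced as paired-end reads by the authors, whose alignment used mm9 and TopHat 2.0.5 and whose gene quantification used RSEM with RefSeq models (RSEM version not given in the sources used here). The deposited table holds expected counts, which the authors gave as whole numbers without normalization, and FPKM values to 2 decimals, scaled by the authors to library size and gene length. The counting is not stated to use strand, so reads of overlapping antisense genes cannot be told apart.

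The expected counts were analysed in R 4.3.3 with edgeR 4.0.16 (TMM, filterByExpr, quasi-likelihood test) in 1 fit of 6 libraries with 5 stages as groups. This leaves 1 residual degree of freedom, from the PN14 mice (common biological coefficient of variation 0.188). The standard error is the one implied by the F statistic. A floor of 3 counts (0.019 to 0.0239 CPM) was used, and untested differences are of log2 normalized CPM plus 0.1. Alternatives were library size, DESeq2's size factors, DESeq2 1.42.0, edgeR's exact test, other filters, a pseudocount of 1 CPM and either PN14 replicate left out. The genes, lists and tests were chosen with earlier results of these data known. Named genes were the 10 genes, at most 5 called genes of each list with the largest change from E18.5 to adult, and 2 genes of most similar course for each; Ttn, Tpm1, Raver1, Fxr1, Mef2a, Mef2d and the paralogs are named outside that rule. GENCODE M1 and the NCBIM37 genome gave positions and sequences, read with Python 3.11.15; the splicing data of the study were not analysed here.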

Additional observations from a re-analysis of the deposited data

How the results depend on the processing

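The number of these 10 genes called from PN2 to PN14 was 2 in the main analysis (23.0% of all genes). With library size alone it was 4 (34.5% of all genes), with Rbfox2 and Ptbp2 added. From PN28 to adult it was 0, against 1 with DESeq2's Wald test and 1 with edgeR's exact test. The count from E18.5 to adult was 6 with TMM (44.9% of all genes) and 6 with library size (53.6%). With library size Rbm20, Rbm24 and Rbm38 gave way to Ptbp2, Nova1 and Esrp1. The count was 7 with edgeR's exact test (48.3%, Esrp1 added). It was 5 of 9 with the filter on mean CPM (46.7%, Rbm24 lost, Esrp1 not tested). Differences of at least 2-fold, counted without a test, were found for 2 of the 10 genes from PN2 to PN14. The share was 27% over all genes that reached 1 CPM at either stage. The number was 4 with library size, and 1 to 3 with a PN14 replicate left out. It was 0 from PN14 to PN28 in every setting (3.3% of all such genes) and 1 from PN28 to adult (10.2%), or 0 with library size. For E18.5 to adult it was 7 (49.6%), or 6 with library size. From PN2 to PN14, Rbfox1 had 1.61 without replicate 1 and 2.03 without replicate 2. The scaling moves the fold changes of all genes together, and the spread of the counts was estimated anew under each scaling. From E18.5 to PN2 the median gene moved by -0.01 under both, yet 5 genes were called with TMM and 241 with library size. The causes of the differences in calls were not tested. Of all genes, 88 were called from PN28 to adult in the main analysis, against 868 with library size, 817 with DESeq2's Wald test and 1146 with edgeR's exact test. The other calls of the 10 genes kept their side with DESeq2's size factors and without a low-count filter. No paired analysis was possible because replicate numbers are given for PN14 only. With 1 library at 4 of 5 stages, a change the size of the spread between mice cannot be seen, and Esrp1, with 1 to 29 counts, is limited by depth.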
